A study of Mus musculus with 4 samples.

Results

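To describe where N6-methyladenosine (m6A) was enriched on the transcripts of the MHC class I presentation pathway in natural killer (NK) cells, 10 genes were followed in the MeRIP-seq peak list of mouse splenic NK cells: B2m, H2-K1, H2-D1, H2-T23, Tap1, Tap2, Tapbp, Nlrc5, Calr and Erap1. A peak was taken where the authors had assigned it to 1 of these genes, which gave 26 peaks, or where it overlapped 1 of them but had been assigned to a neighbouring gene, which gave 3 more. These 29 peaks were drawn from 20727 distinct peaks in 12351 genes.

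In MeRIP-seq, an antibody against m6A pulls down fragments of poly(A) RNA that carry the mark, and their reads are set against reads of input RNA that was not pulled down. There were 4 libraries in 2 groups, with 2 immunoprecipitates and 2 inputs. Both groups came from NK cells sorted from spleens of C57BL/6 mice that had received an IL-15 expression plasmid, so the 2 groups differ in the pull-down and not in genotype or treatment, and resting NK cells without IL-15 were not compared. Each peak carried a single fold enrichment (immunoprecipitate over input) and a single log10 p from peak calling for all libraries together. No error between replicates, no depth and no test between samples can therefore be given for any value here, and a fold enrichment is not a level of the transcript.

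MHC class I molecules display peptides from inside the cell at its surface. A heavy chain pairs with beta-2-microglobulin in the endoplasmic reticulum, where the TAP transporter delivers peptides, tapasin and calreticulin help to load them, and the aminopeptidase ERAP1 trims them. NK cells read class I with inhibitory receptors, and a target that has lost it is killed more readily, while NK cells also carry class I themselves. The nonclassical heavy chain Qa-1, encoded by H2-T23, presents leader peptides of other class I chains to the CD94/NKG2A receptor. NLRC5 is the transactivator of class I genes.

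The sequences below are the sites on which the description turns. Each is 21 bases of the transcript, 5′ to 3′, with the 5 bases of a DRACH site in capitals, DRACH being the sequence context in which m6A is usually deposited (D stands for any base but C, R for a purine and H for any base but G). For each gene the site was taken from its most significant peak that held one, with GGAC preferred and then the site nearest the centre of the peak. A match gives the letters only, and the list does not resolve which base was methylated.
B2m (chr2:122152860-122152880, plus strand, 3' UTR): aattttaaGAACAatagttga
H2-K1 (chr17:33999765-33999785, minus strand, coding): ttccgagtGGACCtgaggacc
H2-D1 (chr17:35267091-35267111, plus strand, 3' UTR): acactgggGGACAtctgcatc
H2-T23 (chr17:36032208-36032228, minus strand, coding): aaagccagGGACAtggggagg
Tap1 (chr17:34196777-34196797, plus strand, 3' UTR): aggcctctGGACTgcacactg
Tap2 (chr17:34216254-34216274, plus strand, 3' UTR): ggttctagAAACAttattttt
Tapbp (chr17:33929058-33929078, plus strand, 3' UTR): gacctcagGGACAgcccacag
Nlrc5 (chr8:94527050-94527070, plus strand, 3' UTR): ggtttaagGGACAaagccgag
Calr (chr8:84842177-84842197, minus strand, 3' UTR): tgcccccaGGACTgggccact
Erap1 (chr13:74692555-74692575, plus strand, 3' UTR): ttttcaccTGACTaggatttt
The builds of the peaks and of these sequences are both GRCm38. B2m, Tap2 and Erap1 are shown by other DRACH words, since the peaks used for them held no GGAC.

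All 10 genes had at least 1 assigned peak, where 46.3% of the protein-coding genes of the annotation had one. That share counts all annotated protein-coding genes, whether or not NK cells express them. The peaks of the 10 genes were significant but shallow. Of the 26 assigned peaks, 24 (92.3%) had a peak-calling p under 0.001, against 61.5% of all peaks, and their median log10 p was -21.5 against -4.1. In contrast, 2 of the 26 (7.69%) reached a fold enrichment of 5, against 34.6% of all peaks. These were 1 peak of H2-T23 and 1 of Tap2, so 2 of the 10 genes had an assigned peak of that size, against 43.4% of protein-coding genes with a peak. With the 3 overlapping peaks included, 4 genes did. The median fold was 1.5 over assigned peaks and 1.57 over all 29, against 2.66 over the whole list and 2.37 over peaks of protein-coding genes. No test was made of these shares. Low fold with high significance also occurred outside the class I genes. Examples are the NK cell gene Gzma (fold 1.53, log10 p -624) and the MHC class II gene Cd74 (fold 1.75, log10 p -1930).

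**Figure D1:**
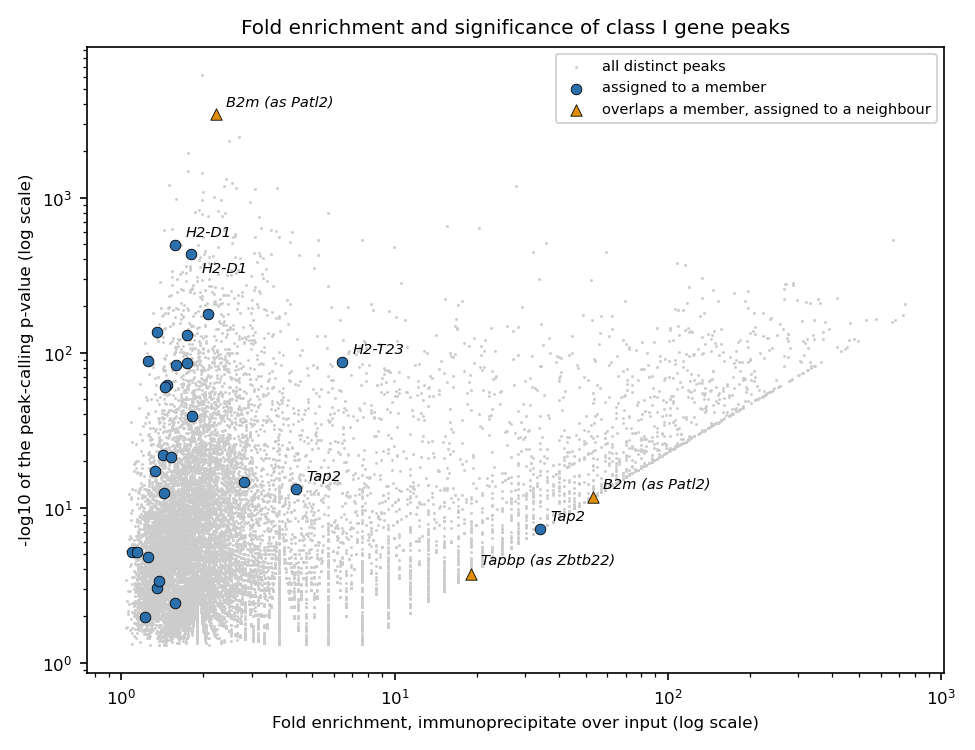
Each point is a peak, with its fold enrichment on the x axis and the negative log10 of its peak-calling p-value on the y axis, both on log scales. Grey points are all 20727 distinct peaks, circles are the 26 peaks assigned to a class I gene and triangles the 3 that overlap one but were assigned to a neighbour. Most circles lie below a fold of 2, and the peak on B2m exons, named Patl2 in the list, is near the top of the plot at a fold of 2.22.

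B2m encodes the light chain shared by all class I molecules (ENSMUSG00000060802, chr2:122147686-122153083, plus strand), and 3 peaks lay over it. The peak that covered its 3' end had been assigned to Patl2, the neighbouring gene on the opposite strand. That peak (chr2:122151109-122153083) held 505 nt of B2m exons and 0 nt of Patl2 exons, and both of its ends fell in B2m exons. Its fold enrichment was 2.22 with a log10 p of -3440, which ranked 2 of all 20727 peaks by significance. It ran from exon 2 through exon 4, covered 100% of the 448-nt 3' UTR and ended at the last base of the transcript. The only peak assigned to B2m itself (chr2:122147686-122147745) was 60 nt at the start of the transcript, of which 52 nt were 5' UTR, with a fold of 1.35 and a log10 p of -136.

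The third peak over B2m had its ends in Patl2. It spanned 57354 nt of the genome (chr2:122128836-122186189), both ends lay in Patl2 exons and none in a B2m exon, and it held 624 nt of Patl2 exons. Its span also took in all 860 exonic nt of B2m. Its fold of 53.1 and log10 p of -11.7 were shared as a pair by 34 peaks of the list. It was counted among the overlapping peaks but was not placed on the B2m transcript, and B2m has no peak with a fold of 5 without it. Whether reads were counted by strand is not given in the sources used here.

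The classical heavy chain genes H2-K1 and H2-D1 and the nonclassical H2-T23 share the layout of their coding exons up to exon 5, and the longest coding transcript has 8 exons in H2-K1 and H2-D1 and 7 in H2-T23. Exon 1 encodes the leader, exons 2 and 3 the alpha-1 and alpha-2 domains that form the peptide groove, exon 4 the alpha-3 domain, and exon 5 the transmembrane segment. Each gene had a long peak over its 5' exons, and the list labelled all 3 of these peaks 5' UTR. On the longest coding transcript, all 3 were centred in the coding sequence.

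H2-K1 (ENSMUSG00000061232, chr17:33996017-34000347, minus strand) had 4 peaks. The 5' peak (chr17:33999267-34000333) covered 686 nt of exons 1 to 3, of which 610 nt were coding, with a fold of 2.07 and a log10 p of -176. The next peak (chr17:33997462-33997702) began where that one ended on the transcript and covered 99 nt of exon 4, with a fold of 1.25 and a log10 p of -88.5. Its span of 241 nt lay in exons of H2-K1 when all isoforms were counted, so the rest was intronic on the longest coding transcript. A peak at chr17:33996856-33996976 had the lowest fold of the 29 peaks, 1.1 with a log10 p of -5.14, and touched 4 nt of exon 6. The 3' UTR peak (chr17:33996017-33996137) reached the end of the transcript with a fold of 1.47 and a log10 p of -61.9.

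H2-D1 (ENSMUSG00000073411, chr17:35262730-35267499, plus strand) had 3 peaks. Its 5' peak (chr17:35263060-35265643) covered 673 nt of exons 1 to 3, of which 619 nt were coding, with a fold of 1.8 and a log10 p of -432. The main 3' UTR peak (chr17:35266929-35267349) was 421 nt long, was centred 269 nt past the stop codon and had a fold of 1.57 and a log10 p of -495, the most significant of the assigned peaks. A shorter peak of 91 nt (chr17:35267409-35267499) ended at the last base with a fold of 1.82 and a log10 p of -39.1. Together the 2 covered 81.4% of the H2-D1 3' UTR, against 20.3% of the 3' UTR of H2-K1.

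H2-T23 (ENSMUSG00000067212, chr17:36029773-36032855, minus strand) had 4 peaks, among them the highest fold of the 3 heavy chains. Its 5' peak (chr17:36032133-36032766) covered 428 nt of exons 1 and 2, of which 331 nt were coding, with a fold of 6.45 and a log10 p of -87. In the whole list 30.3% of peaks had a higher fold. The other 3 were shallow. The exon 4 peak (chr17:36030883-36031091) had a fold of 1.45 and a log10 p of -60.1, the exon 5 peak (chr17:36030577-36030666) 1.44 and -12.4, and the peak over the stop codon and 3' UTR (chr17:36030011-36030249) 1.74 and -86.

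The peaks of the 3 heavy chains met in exon 2 and parted after it. Exon 2 lay completely in a peak in each gene. Exon 3 lay completely in a peak in H2-K1 and H2-D1 but had 0% in H2-T23. Of exon 4, 35.9% was in a peak in H2-K1, 0% in H2-D1 and 75.7% in H2-T23. Exon 5 was in a peak only in H2-T23, at 76.1%.

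**Figure D2:**
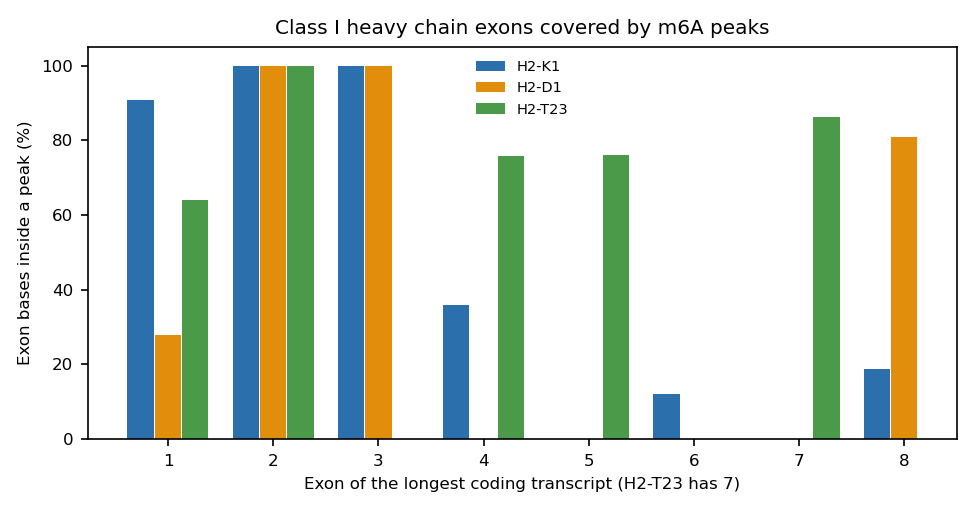
Bars give the percentage of the bases of each exon that lay inside a peak (y axis, from 0) for H2-K1, H2-D1 and H2-T23, by exon of the longest coding transcript (x axis). Exon 2 reaches 100% in all 3 genes, exon 3 in H2-K1 and H2-D1 alone, and exons 4 and 5 are covered most in H2-T23.

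Sequence was compared at the same exons, since reads of near-identical copies can be split or misplaced. The coding sequences of H2-K1 and H2-D1 were 91.4% identical, and each was less like H2-T23, at 81.3% and 81.0%. Exon 4 was the most alike, at 96.0%, 95.3% and 96.4% for the 3 pairs, and exon 3 the least alike between H2-T23 and the others among exons 2 to 5, at 70.7% with H2-K1 and 69.2% with H2-D1. The following stretch of 99 bases from the start of exon 4 is the part of H2-K1 that lay in its exon 4 peak, with the aligned bases of the other genes. Capitals mark bases that differ from H2-K1.
H2-K1 (chr17:33997462-33997560, minus strand): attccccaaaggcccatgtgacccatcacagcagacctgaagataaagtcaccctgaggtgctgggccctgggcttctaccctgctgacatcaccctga
H2-D1 (chr17:35265784-35265882, plus strand): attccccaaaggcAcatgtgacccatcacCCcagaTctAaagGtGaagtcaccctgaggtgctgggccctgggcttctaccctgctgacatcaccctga
H2-T23 (chr17:36030999-36031097, minus strand): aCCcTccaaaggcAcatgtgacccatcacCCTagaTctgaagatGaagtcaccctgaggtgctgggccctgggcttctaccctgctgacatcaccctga
H2-D1 differed at 7 bases and H2-T23 at 9, all in the 5' part of the stretch. All 99 bases lay in a peak in H2-K1 and 93 in H2-T23, and 0 did in H2-D1.

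Of the coding peaks, the exon 4 peak of H2-T23 had the most shared sequence. In it, 72.8% of all windows of 30 nt and 55.5% of all windows of 100 nt occurred unchanged in a transcript of another gene, and H2-D1 held 46 of the 110 long windows. In the H2-K1 exon 4 peak, 35.7% of the 30-nt windows were shared. In the H2-T23 peak with a fold of 6.45, 44.1% of 30-nt windows and 0% of 100-nt windows were shared, the former most often with H2-T-ps. The 3' UTR peak of H2-T23 shared 73.4% of its 30-nt windows, with 579 genes in all. The most frequent were Rab33b and Hook2, which are not class I genes. The main 3' UTR peak of H2-D1, the most significant assigned peak, shared 25.5% of its 30-nt windows, with 709 genes. All 10 heavy chain peaks of at least 30 nt held a shared 30-nt window, against 2 of the 16 peaks of the other genes. Of these 2, the Tap2 peak shared 1.01% of its windows, with 9 genes, and the Tapbp peak 30.3%, with 344 genes. How the authors treated reads that fit several places is not given in the sources used here, and its part in the heavy chain values was not tested.

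The GGAC words of the heavy chains were then aligned. GGAC stood at 10 aligned positions in at least 1 of the 3 coding sequences and at 3 positions in all of them, and at 1 of these 3 it lay inside a peak in every gene. That position is in exon 2, and capitals below mark GGAC with the base that follows it.
H2-K1 exon 2 (chr17:33999909-33999929, minus strand): ggctacgtGGACGacacggag
H2-D1 exon 2 (chr17:35263453-35263473, plus strand): ggctatgtGGACAacaaggag
H2-T23 exon 2 (chr17:36032328-36032348, minus strand): ggctacgtGGACGacacgcag
In exon 2 only the H2-D1 word is a DRACH site, since DRACH does not allow G at its last position. At the shared position in exon 3, H2-K1 and H2-D1 carried GGACG inside a peak, and H2-T23 carried the DRACH word GGACC outside any peak.
H2-K1 exon 3 (chr17:33999408-33999428, minus strand): gaaaacgtGGACGgcggcgga
H2-D1 exon 3 (chr17:35263957-35263977, plus strand): gaaaacgtGGACGgcggcgga
H2-T23 exon 3 (chr17:36031775-36031795, minus strand): gcgttcctGGACCgcgaatga
The last shared position is in exon 4.
H2-K1 exon 4 (chr17:33997418-33997438, minus strand): ctgatccaGGACAtggagctt
H2-D1 exon 4 (chr17:35265906-35265926, plus strand): ctgacccaGGACAtggagctt
H2-T23 exon 4 (chr17:36030955-36030975, minus strand): ctgacccaGGACAtggagctt
There all 3 genes carried the DRACH word GGACA, and the 21 bases of H2-D1 and H2-T23 were the same, but the site lay in a peak only in H2-T23. The fold there was 1.45, and the shared windows given above cover this peak.

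The TAP transporter is a dimer of TAP1 and TAP2, whose genes lie close together on chromosome 17, and their peaks differed in place and size. Tap1 (ENSMUSG00000037321, chr17:34187553-34197225, plus strand) had a coding peak in exon 1 (chr17:34187912-34188032) with a fold of 1.58 and a log10 p of -2.44, which did not reach a p of 0.001. Its other peak (chr17:34196627-34196956) lay across the stop codon, with 148 nt coding and 182 nt in the 3' UTR, a centre 17 nt past the stop, a fold of 1.42 and a log10 p of -21.8. The GGACT printed above for Tap1 lies in it, 13 nt past the stop codon.

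Tap2 (ENSMUSG00000024339, chr17:34203527-34216321, plus strand) had the highest fold of all assigned class I peaks. That peak (chr17:34203527-34204450) covered the leading 924 nt of a 1105-nt 5' UTR, from the start of the transcript, with a fold of 34.1 and a log10 p of -7.23. In the list 7.34% of peaks had a higher fold, while 38 peaks shared exactly this pair of fold and p. It held 20 DRACH sites, of which 3 began with GGAC and are printed here.
Tap2 5' UTR (chr17:34203799-34203819, plus strand): aagtctgaGGACAaagggcca
Tap2 5' UTR (chr17:34204003-34204023, plus strand): caaaggtgGGACAcctgtgtg
Tap2 5' UTR (chr17:34204032-34204052, plus strand): actgggagGGACCtgaagtca
The 2 other peaks of Tap2 had folds of 2.81 and 4.37. The former (chr17:34211784-34211931, log10 p -14.7) was labelled 3' UTR in the list, but on the longest coding transcript its 62 exonic nt lay in the coding part of exon 6. The latter (chr17:34216232-34216291, log10 p -13.2) was in the 3' UTR, 168 nt past the stop codon. Tap2 was thus the only one of the 10 genes whose assigned peaks all had a fold of at least 2.

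Tapbp encodes tapasin, which bridges TAP and the empty class I molecule (ENSMUSG00000024308, chr17:33915899-33929292, plus strand). Its 4 assigned peaks were shallow and stood mostly in the 3' UTR. The coding peak (chr17:33925630-33926009, exons 4 and 5) had a fold of 1.25 and a log10 p of -4.77. The 3 peaks in the 3' UTR (chr17:33928210-33928389, chr17:33928539-33928719 and chr17:33928839-33929288) had centres 148, 478 and 912 nt past the stop codon, folds of 1.14, 1.33 and 1.59 and log10 p values of -5.15, -17.3 and -83.6. Both fold and significance thus increased with distance from the stop codon over these 3 peaks, which covered 71.1% of the 3' UTR.

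A much higher fold at the Tapbp locus carried the name of a neighbour. The peak at chr17:33915904-33916258 was assigned to Zbtb22 on the same strand, with a fold of 19.0 and a log10 p of -3.75, a pair shared by 138 peaks. It overlapped 149 nt of Zbtb22 exons and 134 nt of exons of alternative Tapbp transcripts, and both of its ends lay in exons of both genes. It touched 0 nt of the longest coding Tapbp transcript, and the list cannot tell which of the 2 genes gave its reads.

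The remaining 3 genes had their most significant peak in the 3' UTR. Nlrc5 (ENSMUSG00000074151, chr8:94434356-94527272, plus strand) had a single peak in a transcript of 7578 nt and 53 exons. It was the last 330 nt of the 3' UTR (chr8:94526943-94527272), with a fold of 1.52 and a log10 p of -21.2, and contained 9 DRACH sites. Calr, which encodes the chaperone calreticulin (ENSMUSG00000003814, chr8:84841850-84846934, minus strand), also had a single peak in its 3' UTR (chr8:84842090-84842420), with a fold of 1.74 and a log10 p of -130. Erap1 (ENSMUSG00000021583, chr13:74639568-74693201, plus strand) had the weakest set. Its coding peak (chr13:74690595-74690655) had a fold of 1.22 and a log10 p of -1.97, and 2 overlapping peaks in the 3' UTR (chr13:74692362-74692662 and chr13:74692428-74692667) had folds of 1.35 and 1.38 and log10 p values of -3.03 and -3.37.

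**Figure D3:**
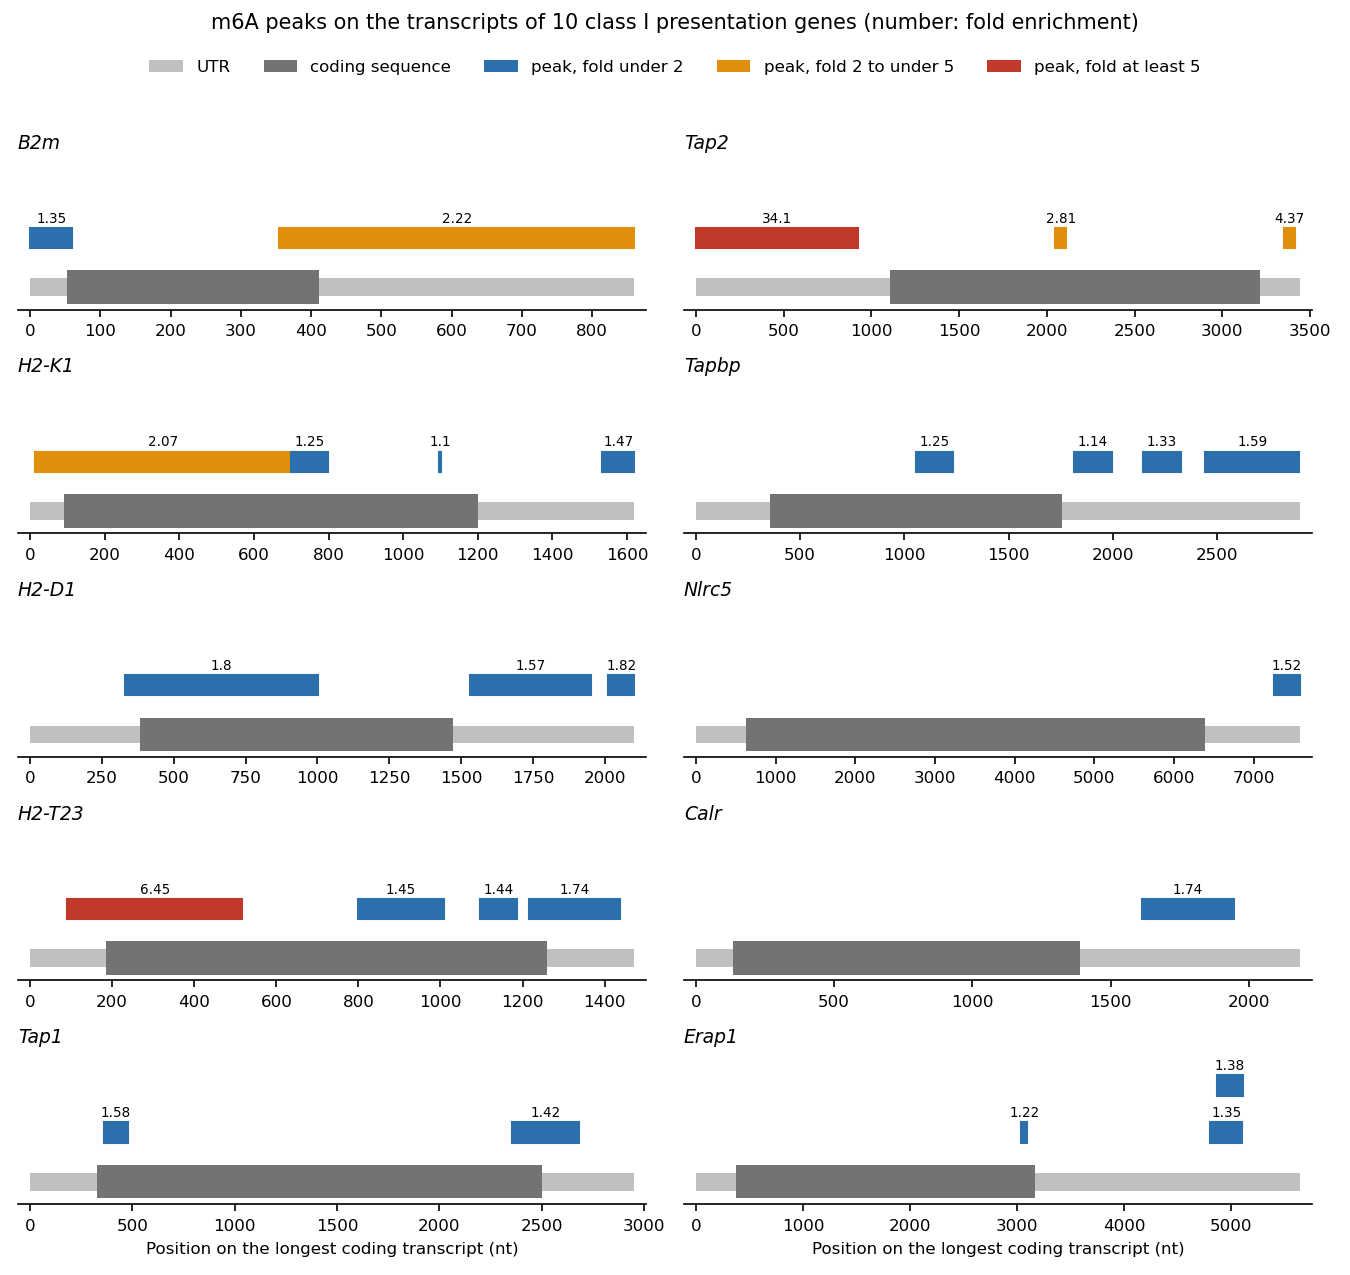
Each panel shows the longest coding transcript of 1 gene from 5′ to 3′, with position in nt on the x axis, UTRs in light grey and the coding sequence in dark grey. Coloured bars are the 27 placed peaks with their fold enrichment, which is at least 5 only in the 5' peaks of H2-T23 (6.45) and Tap2 (34.1).

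Of the 29 peaks, 27 could be placed on the longest coding transcript, and the 57354-nt Patl2 peak and the Zbtb22 peak were not. By their centres, 14 were 3' UTR peaks (51.9%, Wilson interval at 95% from 34.0 to 69.3), 11 in the coding sequence (40.7%) and 2 in the 5' UTR (7.41%). Over all 15706 placed peaks the shares were 56.5%, 33.5% and 9.95%. Within 200 nt of the stop codon were 8 class I peaks (29.6%, interval 15.9 to 48.5), against 22.3% of all. Both intervals hold the share of all peaks. They cover counting error only and treat the 27 peaks as independent. Several peaks lie in the same gene and the 3' UTR peaks of Erap1 overlap, so the intervals cannot decide whether positions differ. Folds of class I peaks were lower in each of the main regions, with a median of 1.54 against 2.02 in the 3' UTR and 1.45 against 2.53 in the coding sequence. The 2 peaks in the 5' UTR were far apart, at 1.35 for B2m and 34.1 for Tap2. A peak ended at the last base of the transcript in B2m, H2-K1, H2-D1 and Nlrc5.

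Pooled over the 10 genes, DRACH sites were not denser in class I peaks than around them. Peaks held 18.1 DRACH sites per kb and the rest of the same transcripts 21.0. Over all placed peaks of the list the values were 20.2 and 20.3, so this density did not separate peaks from their surroundings there either. The authors report DRACH enrichment in their peaks from a motif search, which is a different measure. At least 1 DRACH site was present in 23 of the 27 peaks, and GGAC followed by A, C or T in 13. The genes fell on both sides. The density was higher inside peaks in 6 genes, most of all in H2-T23, with 20.1 inside against 11.4 outside. It was lower inside in B2m (12.4 against 27.1), H2-K1 (13.7 against 28.2), H2-D1 (16.0 against 22.9) and Calr (12.1 against 22.1). The 505-nt B2m peak, the most significant of the set, held 7 DRACH sites and 0 GGAC.

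**Figure D4:**
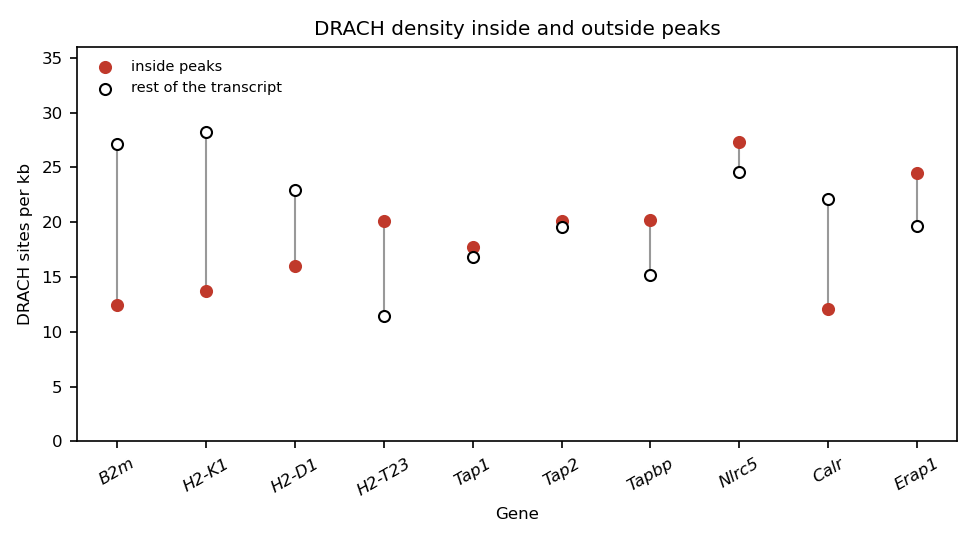
For each gene (x axis) the filled point gives DRACH sites per kb inside its peaks and the open point those in the rest of its longest coding transcript (y axis). Filled points lie below open points in B2m, H2-K1, H2-D1 and Calr and above them in the other 6 genes, by the widest margin in H2-T23.

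Other genes of the pathway were examined in 6 lists of 62 genes, of which 60 were found in the annotation. A peak was present in 42 of them, where 46.3% of all protein-coding genes had one. A fold of at least 5 was reached in 8 of these 42, against 43.4% of protein-coding genes with a peak, and the median fold over their 94 peaks was 1.64. The low folds of the 10 genes were thus also found in the rest of the pathway, with a few exceptions. Low folds were not particular to the pathway. Of the marker sets described below, those of NK cells, myeloid and dendritic cells and MHC class II had median folds of 1.41, 1.38 and 1.6. The B cell and T cell sets had higher medians, 2.12 over 4 peaks and 4.74 over 8 peaks.

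Among other heavy chains, 10 of 20 had a peak, a share near the 46.3% of all protein-coding genes. H2-M5 had the highest fold (51.2, log10 p -11.6), a pair shared by 2 peaks of the list. H2-Q6, a nonclassical Qa-2 gene, had the most significant peak (fold 1.45, log10 p -180). Of the class I-like molecules outside the H2 region, 3 of 7 had a peak, also near that share. The highest fold was in Azgp1 (5.69, log10 p -2.59), a pair shared by 8 peaks. The most significant peak was in Fcgrt, which encodes the neonatal Fc receptor (1.79, log10 p -26.8).

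Genes of the immunoproteasome, which cuts the peptides, and of its activators had a peak in 7 of 7 and none with a fold of 5. The highest fold was in Psme3 (3.45) and the most significant peak in Psme1 (2.18, log10 p -127). The Psme1 peak also overlapped Emc9. Of the genes for folding and loading, 6 of 7 had a peak. Pdia3, which encodes the ERp57 partner of tapasin, had both the highest fold and the most significant peak at the same place in its 3' UTR (chr2:121437671-121438030, fold 59.6, log10 p -443), and this pair of values occurred once in the list. Of the genes for cytosolic peptide handling, 6 of 7 had a peak. The highest fold was in Nrdc (14.2), where 2 peaks of the list shared the pair of fold and p. The most significant peak was in Npepps (4.55, log10 p -13.3). Of the transcription factors of class I genes, 10 of 12 had a peak. The highest fold was in Rfx5 (15.2), a subunit of the factor that binds class I and class II promoters. The Rfx5 peak also overlapped B230398E01Rik. The most significant peak was in Irf8 (2.43, log10 p -140).

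**Figure D5:**
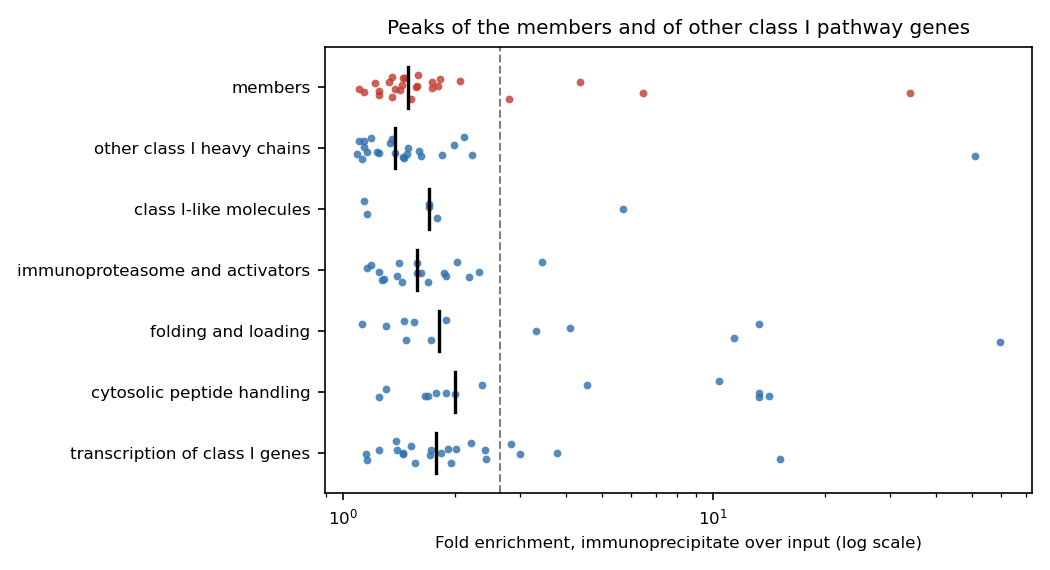
Each point is a peak assigned to a gene of the list named on the y axis, with its fold enrichment on the x axis (log scale) and a small vertical spread for legibility. Black bars are the medians of each list, which run from 1.38 to 2.0, and the dashed line is the median of all peaks, 2.66.

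The labelled cell type was checked by its markers. All 10 NK cell markers had a peak, against 46.3% of protein-coding genes, with a median fold of 1.41 and folds up to 2.53. The same full share was reached by 5 of 5 myeloid and dendritic markers (median fold 1.38) and 4 of 4 MHC class II genes (median fold 1.6). Among the latter, Cd74 had a log10 p of -1930. Of the myeloid and dendritic markers, Csf1r (fold 1.64, log10 p -322) and Lyz2 (1.9, -143) had the most significant peaks. Among the NK cell markers these were in Gzma (1.53, -624) and Il2rb (2.53, -316). Of T cell markers 3 of 5 had a peak and Cd4 and Cd8a had none. The median fold of T cell peaks was 4.74, with the highest at 30.3 in Cd3e, 31.6 in Cd3g and 5.69 in Cd3d. The Cd3e peak (chr9:44998740-45009627, log10 p -6.35) also overlapped Gm48719 and Gm48720, and 69 peaks shared its pair of fold and p. The Cd3d peak had a log10 p of -1.63, and 200 peaks shared its pair. The Cd3g peak (log10 p -19.3) was not placed on the longest coding transcript. The most significant peaks of Cd3g and Cd3d had lower folds, 3.79 (log10 p -46.8) and 2.55 (log10 p -9.43). Of B cell markers, Cd79a had a peak with a fold of 7.59, Cd79b had one with a fold of 2.69 and Ighm had a highest fold of 1.54, while Ms4a1 had none. A peak shows that reads of a transcript were present and not how many. Class I genes are used by nearly all cell types, and the part that RNA of other spleen cells had in the class I peaks was not tested.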

How the data were processed

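MeRIP-seq was done on splenic NK cells in 4 libraries, 2 m6A immunoprecipitates and 2 inputs. The authors aligned trimmed reads to GRCm38 with HISAT2, called peaks with exomePeak and annotated them with ChIPseeker. The deposited fold enrichment is a ratio of immunoprecipitate to input made by the authors. The deposited significance is a score, the log10 of the unadjusted peak-calling p-value, and its weakest value was -1.30. The list has 0 columns with a value per sample, so library depth and the way replicates were combined are unknown, and no replicate was averaged or compared.

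Of 20751 rows, 24 exact repeats were removed. Peaks were placed by the centre of their exonic part on the longest coding transcript of each gene (GENCODE M21, GRCm38), which is a choice made here. All 30752 exon bases of the 10 genes were the same in the transcripts and in the genome. Sequences were read from these transcripts, coding sequences were aligned with MAFFT 7.526, and the tables were made with Python 3.11.15 and pandas 2.3.3. DRACH and GGAC were sought on the strand of the gene. Windows of 30 and 100 nt of each peak were looked up in all transcripts of the annotation. Placement and motif counts were tested on simulated data. The shares carry 95% Wilson intervals. Alternatives changed the fold and p thresholds, the assignment, the transcript, the stop codon window and the motif.

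The genes and lists were chosen with earlier results of these data known. Named genes are the 10 genes, the neighbours that overlapping peaks were assigned to, and in each other list the gene with the highest fold and the gene with the most significant peak. Marker genes, genes that share windows with a peak, and genes that a named peak also overlapped were named as they occurred. Nrdc was matched as Nrd1, and H2-Q8 and H2-Q9 were not found in the annotation and not analysed here. Another B cell marker is not reported here.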

Additional observations from a re-analysis of the deposited data

How the results depend on the processing

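Of 26 alternative values of 7 results, 19 stayed within the limits set for no change (1.5 times for counts, the 95% Wilson interval for shares) and 7 did not. The fold threshold mattered most. At a fold of at least 2, 5 genes and 8 peaks were left, and at a fold of at least 5, 4 genes and 4 peaks. These counts include the overlapping peaks named Patl2 and Zbtb22. With assigned peaks only, 2 genes and 2 peaks reached a fold of 5. At that fold, the pathway genes outside the 10 that had a peak went from 42 to 8. At a p under 0.001 all 10 genes, 27 peaks and 37 pathway genes remained above the threshold. A stop codon window of 100 nt held 7.41% of peaks and one of 400 nt 48.1%, against 29.6% at 200 nt. GGAC occurred at 4.37 per kb, where DRACH, counted peak by peak, occurred at 18.2. Leaving out the Patl2 peak of 57354 nt, an alternative added after the values were seen, gave 28 peaks and a median fold of 1.54. The strongest peak of each gene had a median fold of 1.94. No paired analysis was possible because the list has no values per sample, and leaving out each replicate was not run for the same reason. Depth is unknown, so the list cannot say which genes without a peak had too few reads for one.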
